A study of Mus musculus with 12 samples.

Results

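The genes described here are 8 members of the axon degeneration pathway, chosen by name: Sarm1, Nmnat1, Nmnat2, Nmnat3, Nampt, Stmn2, Mycbp2 and Map3k12. All 8 were among the 38924 genes in the tables, and all 8 passed the filter on low counts, which left 17189 genes for testing. They were measured by poly(A) RNA-seq of whole spinal cord from 12 mice aged 8 weeks on a mixed B6J;FVB background. 6 mice were heterozygous for the delETAQ allele of Gars (GarsdelETAQ/+, written ETAQ/+ here), with 3 females and 3 males, and 6 were wild type (WT), again with 3 females and 3 males. Gars encodes glycyl-tRNA synthetase, whose dominant mutations cause an inherited disease of peripheral axons, and the series title describes the ETAQ/+ mice as an adult-onset line. The labels name no Cre, transgene or treatment and do not say whether any of the mice were littermates.

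Wallerian degeneration, the self-destruction of an axon cut off or failing in its supply, turns on the metabolite NAD. SARM1 is an NAD-cleaving enzyme that is held inactive by NAD and switched on by its precursor NMN. NAMPT makes NMN, and the 3 NMNAT enzymes turn NMN into NAD: NMNAT1 in the nucleus, NMNAT2 in the cytosol and axon, NMNAT3 in mitochondria. NMNAT2 and the microtubule-binding protein stathmin 2 (Stmn2, also called SCG10) are short-lived proteins that axons must keep supplying. MYCBP2, the large ubiquitin ligase also called PHR1, and the kinase DLK (Map3k12) both bear on that supply.

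Totals ran from 23595929 to 41452662 expected counts per library, so 3 counts corresponded to 0.0724 to 0.127 CPM (counts scaled to the size of the library). Levels called normalised CPM below use library sizes adjusted by edgeR's TMM method. Gars itself was at 136 to 151 normalised CPM in ETAQ/+ and 120 to 133 in WT (log2 fold change 0.19 ± 0.03, adjusted p = 0.00408 in edgeR's quasi-likelihood test), which does not check the genotype labels, since a short in-frame deletion leaves reads of both alleles in the gene's count. Mice 1 to 6 and mice 7 to 12 differed in 1356 genes (7.89% of those tested, adjusted p under 0.05) in a fit that adjusted for sex and genotype. The split was taken from the title numbers and from blood and nerve markers of these data. This count and the marker sums that follow therefore describe it and do not test it. Summed TPM (abundance scaled to transcript length and library size) of 6 red blood cell markers was 7136 to 13238 in mice 1 to 6 and 638 to 1212 in mice 7 to 12, sums of 6 Schwann cell markers were 192 to 543 and 16.8 to 25.1, and sums of 7 skeletal muscle markers were 53.2 to 746 and 2.25 to 5.56. In WT, all 3 males were among mice 1 to 6 and all 3 females among mice 7 to 12. In ETAQ/+, mice 1 to 6 were 1 female (mouse 1) and 2 males. Mice 7 to 12 of that genotype were 2 females and 1 male (mouse 11). Over all 12 mice, sex and mouse set thus nearly coincide and differ only in mice 1 and 11. Sex and mouse set therefore cannot be told apart within WT, nor can a dependence of the genotype effect on one or the other.

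Spinal cord of ETAQ/+ mice contained less Stmn2 transcript than that of WT mice, and the other 7 genes did not pass the test. Stmn2 was at 290 ± 9.37 normalised CPM in ETAQ/+ and 358 ± 5.46 in WT (mean ± SD, n = 6 each), a difference of -19.0%. Its log2 fold change was -0.30 ± 0.03 (SE), with a 95% interval of -0.36 to -0.24 and an adjusted p of 1.7e-05 (edgeR, Benjamini-Hochberg over all genes tested). That 1 of 8 genes was called lower stands beside 230 of 17189 genes over the whole transcriptome (1.34%), with a further 100 (0.582%) called higher. At an unadjusted p under 0.05 were 3 of the 8 (Stmn2, Sarm1 and Nmnat1), against 10.9% of all genes. The median log2 fold change was -0.08 over the 8 genes and 0.00 over all genes.

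**Figure D1:**
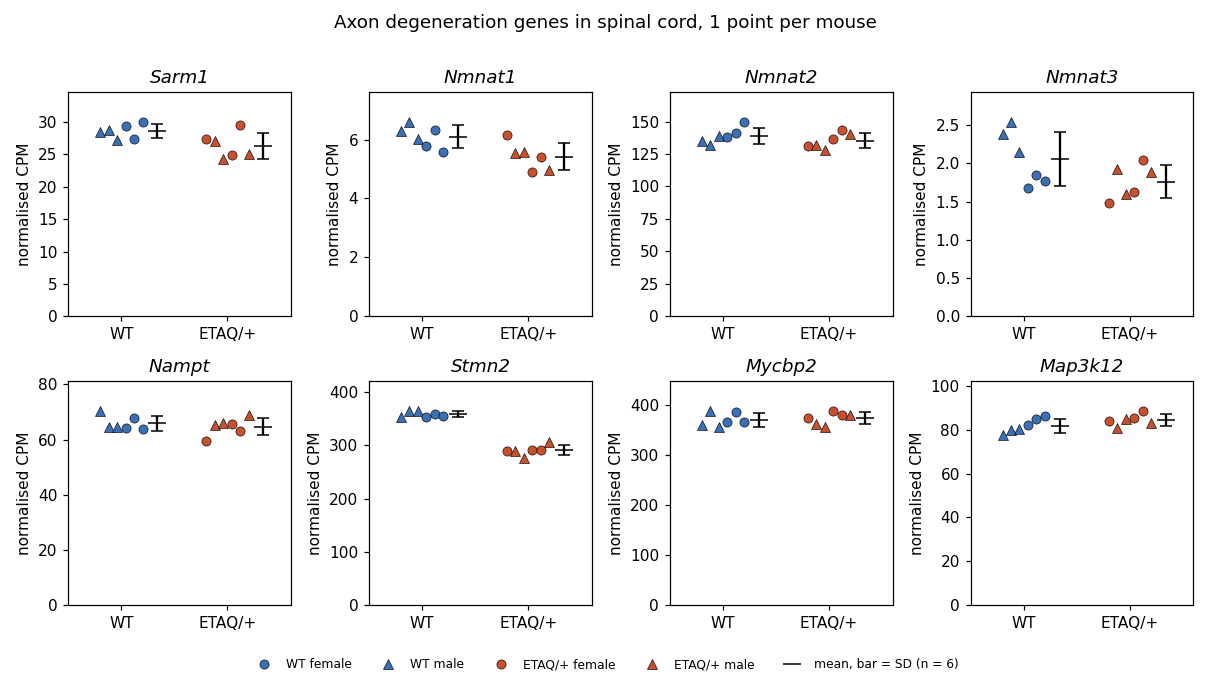
Normalised CPM (y axis, from 0) of each of the 8 genes in every mouse, by genotype (x axis, colour) and sex (circles female, triangles male), with the mean and SD of 6 mice beside each group. The 6 ETAQ/+ values of Stmn2, 277 to 306, lie below all 6 WT values, 353 to 365, while the groups overlap for the other 7 genes.

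Stmn2 is a stathmin of neurons, a tubulin-binding protein of growing and mature axons. Its gene lies on chromosome 3 at 8509360 to 8561606 on the plus strand (GRCm38, GENCODE M21). In the 3 ETAQ/+ females the level was 290, 291 and 290 normalised CPM, and in the 3 ETAQ/+ males it was 289, 277 and 306. WT females were at 354, 359 and 355, and WT males at 353, 365 and 365. The highest ETAQ/+ mouse was thus below the lowest WT mouse, a separation in this direction that 232 tested genes showed (1.35%). The authors' own TPM values separated the genotypes as well, at 275 to 321 in ETAQ/+ and 323 to 374 in WT.

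Because Stmn2 belongs to a family of related genes, reads could be shared with its paralogs where their coding sequences are identical. The longest identical stretches between the Stmn2 coding sequence (537 bases, GENCODE M21) and those of its paralogs are printed here to show how they compare with a read of 75 bases. They are 43 bases with Stmn1 (Stmn2 coding positions 364 to 406), 21 with Stmn3 (295 to 315) and 18 with Stmn4 (331 to 348), each shorter than a read.
Stmn1: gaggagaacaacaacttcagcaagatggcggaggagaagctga
Stmn3: gaggctcaggtgctgaagcag
Stmn4: gagcacgagcgagaggtg
Over all annotated Stmn2 transcripts, untranslated ends included, 0.304% of the 75-base sequences also occurred in a transcript of another gene.

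The paralogs themselves did not pass the test in this comparison. Stmn1, a broadly expressed stathmin, was at 183 to 248 normalised CPM in ETAQ/+ and 196 to 300 in WT (log2 fold change -0.29 ± 0.07, edgeR adjusted p = 0.0693), and DESeq2 gave an adjusted p of 0.0022. Of its 75-base sequences 15.4% also occurred in other genes, so its count is uncertain. Stmn3 was at 281 ± 5.40 and 285 ± 10.3 normalised CPM in ETAQ/+ and WT, and Stmn4 at 165 ± 8.60 and 161 ± 8.63. The estimate for Stmn2 was as large as that for Stmn1, with a smaller SE, and the intervals of Stmn3 (-0.08 to 0.04) and Stmn4 (-0.06 to 0.12) did not reach it.

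Lower Stmn2 was seen in either sex and in either set of mice. These are nearly the same split, with the same WT mice on each side, and differ only in ETAQ/+ mice 1 and 11. The result by set therefore largely repeats that by sex. In females the log2 fold change was -0.29 ± 0.04 (edgeR adjusted p = 0.00314, among 0.541% of genes called lower in females), and in males it was -0.31 ± 0.04 (edgeR adjusted p = 0.00177, among 0.442%). The difference between the sexes was 0.02 ± 0.06, with an interval of -0.11 to 0.14 (edgeR adjusted p = 0.984), and no gene at all passed this interaction test, although 4.96% had an unadjusted p under 0.05 and DESeq2 called 3. Within mice 1 to 6 the Stmn2 log2 fold change was -0.33 (edgeR adjusted p = 0.00052, 0.524% of genes called lower), and within mice 7 to 12 it was -0.27 (edgeR adjusted p = 0.00292, 0.686% called lower). The call was kept whichever mouse was left out, with values from -0.32 to -0.29.

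In whole tissue, fewer neurons and less transcript per neuron cannot be told apart, so Stmn2 was also set against markers of neurons. The mean log2 normalised CPM of 15 pan-neuronal markers was 8.43 ± 0.04 in ETAQ/+ and 8.48 ± 0.03 in WT, a difference of -0.05. None of the 15 passed the test, but their median was -0.06. A negative fold change was seen for 13 of them, beside 8266 of 17189 genes tested. Of the 15, 6 had an unadjusted p under 0.05, beside 10.9% of all genes. The 2 with the smallest p were the synaptic protein gene Snap25 (-0.11 ± 0.03, edgeR adjusted p = 0.0835) and the neuronal tubulin Tubb3 (-0.10 ± 0.03, edgeR adjusted p = 0.0959), and DESeq2 called both lower. Relative to that mean, the log2 level of Stmn2 was -0.25 ± 0.04 in ETAQ/+ and 0.00 ± 0.04 in WT (n = 6 each). This difference of -0.25 had an exact two-sided permutation p of 0.00216, the smallest that 6 against 6 mice can give, and 0.00866 after adjustment over the 4 ratios tested. The ratio was at -0.30 to -0.19 in ETAQ/+ mice and -0.05 to 0.04 in WT mice, without overlap. Stmn2 alone already separated the genotypes and the reference moved by only -0.05, so this p is not separate support. A mean over all cord neurons is little moved by a small class of them. The ratio therefore cannot tell fewer such neurons from less transcript in each.

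Motor neurons express Stmn2 strongly, and several transcripts on a list of motor neuron markers had larger fold changes than Stmn2. This difference was not itself tested. Whole tissue does not show whether the listed transcripts came from motor neurons alone. Of 13 motor neuron markers tested, 8 were called lower and none higher (median log2 fold change -0.55), beside 1.34% and 0.582% of all genes. This list, like the others, was chosen with earlier results of these data known. The summed TPM of the markers was 2040 to 2182 in ETAQ/+ against 2918 to 3173 in WT. Most of that sum was neurofilament transcript: Nefl, Nefm and Nefh together held 1934 to 2064 TPM in ETAQ/+ and 2704 to 2956 in WT, and the other 10 markers 100.04 to 130 and 197 to 232. Among the 8 were Chat, the enzyme that makes acetylcholine (-0.64 ± 0.05), Chodl, a marker of fast motor neurons (-1.84 ± 0.07), and the intermediate filament genes Prph (-0.84 ± 0.05), Nefh (-0.54 ± 0.03), Nefl (-0.49 ± 0.03) and Nefm (-0.55 ± 0.04). Nefl and Nefm overlap on opposite strands, so their split is uncertain. The motor neuron transcription factors Mnx1 (-0.14 ± 0.12), Isl1 (-0.02 ± 0.20) and Isl2 (-0.85 ± 0.24, edgeR adjusted p = 0.121) were not called. Nor were Slc5a7 (-0.28 ± 0.08, edgeR adjusted p = 0.138) and Mmp9 (-0.08 ± 0.22, edgeR adjusted p = 0.947). Measured against the mean log2 normalised CPM of the 13 markers, Stmn2 stood at 3.69 ± 0.16 in ETAQ/+ and 3.26 ± 0.11 in WT, a difference of 0.42 that was not tested and was added after its values were seen. The part of these markers in the Stmn2 result was not tested.

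**Figure D2:**
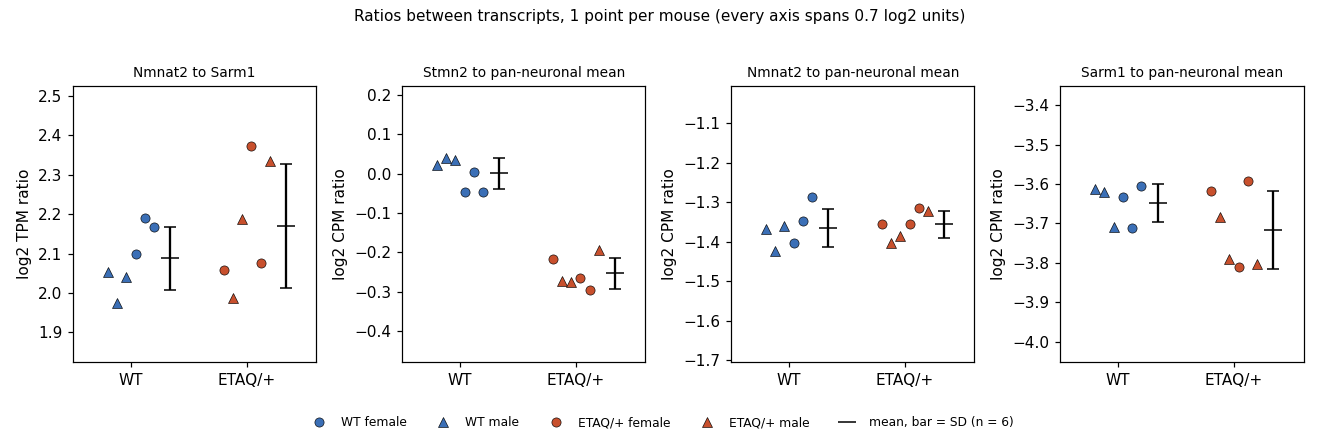
Log2 ratios in every mouse, by genotype (x axis, colour) and sex (circles female, triangles male): Nmnat2 to Sarm1 TPM, and Stmn2, Nmnat2 and Sarm1 normalised CPM to the mean of 15 pan-neuronal markers, with mean and SD (n = 6); each y axis spans the same range. The Stmn2 ratio separates the genotypes (-0.30 to -0.19 against -0.05 to 0.04) and the other 3 ratios overlap.

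Sarm1, the executioner NADase, lies on chromosome 11 at 78472330 to 78497754 on the minus strand. Its level was 24.2, 26.1 and 29.6 normalised CPM (lowest, median and highest) in ETAQ/+ and 27.3, 28.6 and 30.1 in WT. The groups overlapped, with 4 of 6 ETAQ/+ mice below the lowest WT mouse. The log2 fold change was -0.12 ± 0.05 (interval -0.22 to -0.01), at an unadjusted p of 0.0295 and an adjusted p of 0.366 in edgeR, so it did not pass. The estimate was -0.09 in females and -0.15 in males, and the difference between the sexes was 0.06 ± 0.10. Against the pan-neuronal mean, the difference was -0.07 with an exact permutation p of 0.169 (0.338 adjusted over the 4 ratios).

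Nmnat2, the axonal NAD synthase and survival factor, lies on chromosome 1 at 152954993 to 153119261 on the plus strand. It was at 128, 134 and 143 normalised CPM (lowest, median and highest) in ETAQ/+ and 132, 139 and 150.0 in WT. The ranges overlapped, with 3 of 6 ETAQ/+ mice below the lowest WT mouse. The log2 fold change was -0.04 ± 0.03, and its interval of -0.11 to 0.03 (edgeR adjusted p = 0.740) excludes a fall of the size seen for Stmn2. Relative to the pan-neuronal mean the genotypes differed by 0.01 (exact permutation p = 0.697). On the TPM scale Nmnat2 was at 53.8 ± 4.05 in ETAQ/+ and 53.7 ± 3.46 in WT.

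Nmnat2 and Sarm1 act in opposition, so the ratio of their TPM was taken in each mouse. Nmnat2 TPM was 3.97 to 5.18 times that of Sarm1 in ETAQ/+ (median 4.39) and 3.93 to 4.56 times in WT (median 4.22). The 2 highest ratios belonged to ETAQ/+ mice 8 and 11. The mean log2 ratio was 2.17 ± 0.16 in ETAQ/+ and 2.09 ± 0.08 in WT, a difference of 0.08 that was within the spread of the mice (exact permutation p = 0.284, 0.378 adjusted over the 4 ratios).

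Nmnat1, the nuclear NAD synthase, lies on chromosome 4 at 149467572 to 149485202 on the minus strand. Its level was 4.89, 5.46 and 6.16 normalised CPM (lowest, median and highest) in ETAQ/+ and 5.56, 6.17 and 6.61 in WT. Ranges overlapped, with 4 of 6 ETAQ/+ mice below the lowest WT mouse. The log2 fold change of -0.17 ± 0.08 (interval -0.33 to -0.01) had an unadjusted p of 0.0434 and an adjusted p of 0.434 in edgeR. That interval includes a fall as large as that of Stmn2. Estimates were -0.10 in females and -0.24 in males, and the 2 sets of mice gave -0.17 and -0.18.

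Nmnat3, the mitochondrial NAD synthase, lies on chromosome 9 at 98287435 to 98420438 on the plus strand and was the least abundant of the 8, with 45 to 88 expected counts per library. It was at 1.48, 1.75 and 2.04 normalised CPM (lowest, median and highest) in ETAQ/+ and 1.68, 1.99 and 2.55 in WT. The 3 WT males, all from mice 1 to 6, were the highest of the 12 at 2.39, 2.55 and 2.14, above the 3 WT females at 1.68, 1.84 and 1.76. The log2 fold change was -0.22 ± 0.12 over all mice (edgeR adjusted p = 0.600), -0.38 ± 0.17 in males and -0.04 ± 0.17 in females. By mouse set it was -0.45 in mice 1 to 6 and 0.02 in mice 7 to 12. The difference between the sexes, 0.34 ± 0.24, did not pass (edgeR adjusted p = 0.903), nor did that between the sets (-0.48, edgeR adjusted p = 0.995). The interval of the effect over all mice, -0.48 to 0.05, includes a fall as large as that of Stmn2.

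Nampt, the rate-limiting enzyme of the NAD salvage route, lies on chromosome 12 at 32819545 to 32853349 on the plus strand. It was at 59.6, 65.5 and 68.9 normalised CPM (lowest, median and highest) in ETAQ/+ and 63.8, 64.6 and 70.5 in WT. The groups overlapped, and the log2 fold change was -0.03 ± 0.03 (interval -0.10 to 0.05, edgeR adjusted p = 0.859). The interval leaves out a fall of the size of Stmn2's.

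Mycbp2 lies on chromosome 14 at 103113411 to 103346814 on the minus strand. The ubiquitin ligase was at 355, 376 and 387 normalised CPM (lowest, median and highest) in ETAQ/+ and 356, 365 and 388 in WT. Ranges were nearly the same, and the log2 fold change was 0.01 ± 0.03 (interval -0.06 to 0.08, edgeR adjusted p = 0.953). Map3k12, the DLK kinase, lies on chromosome 15 at 102497646 to 102517064 on the minus strand. It was at 80.7, 84.4 and 88.7 normalised CPM in ETAQ/+ and 77.4, 81.2 and 86.3 in WT, again overlapping. Its log2 fold change was 0.05 ± 0.03 (interval -0.01 to 0.10, edgeR adjusted p = 0.601). The Map3k12 value is uncertain, because 19.3% of its exon bases lie opposite exons of Pcbp2 or Gm10337 and 17.6% of its 75-base sequences occur in another gene.

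**Figure D3:**
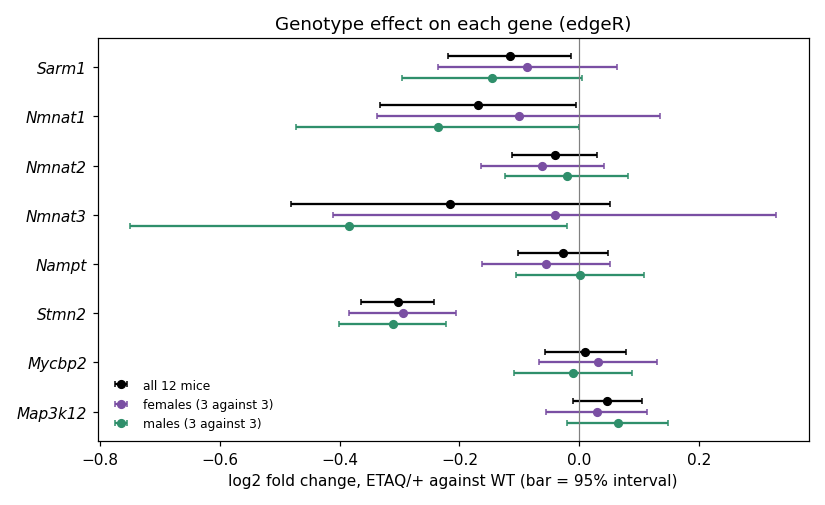
Log2 fold change of ETAQ/+ against WT (x axis) with its 95% interval for each gene (y axis), in all 12 mice, in females and in males, from edgeR. The 3 Stmn2 intervals lie between -0.40 and -0.21, clear of 0; the Nmnat3 intervals are the widest of the 8 genes.

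Sex and mouse set, which nearly coincide, were also compared for the 8 genes. Over all genes 16 differed between females and males (0.0931%), and none of the 8 was among them; Map3k12 had the smallest unadjusted p, 0.0204, with a log2 difference, female against male, of 0.07 ± 0.03 (edgeR adjusted p = 0.231). Between mice 1 to 6 and mice 7 to 12, none of the 8 passed either. Nmnat1 was higher in mice 1 to 6 by 0.21 on the log2 scale (edgeR adjusted p = 0.193) and the difference for Nmnat2 was -0.09 (edgeR adjusted p = 0.148). Stmn2 differed between the sets by -0.04 (edgeR adjusted p = 0.536).

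Levels were compared between genes on the TPM scale, which divides by transcript length. In all 12 mice the order was the same: Stmn2, Mycbp2, Nmnat2, Map3k12, Nampt, Sarm1, Nmnat1 and Nmnat3. Ranges over the 12 mice were 275 to 374 TPM for Stmn2, 108 to 127 for Mycbp2, 47.9 to 59.2 for Nmnat2, 33.5 to 46.0 for Map3k12, 23.7 to 28.0 for Nampt, 10.6 to 14.0 for Sarm1, 5.57 to 7.75 for Nmnat1 and 1.33 to 2.41 for Nmnat3. No neighbours in that order overlapped. The place of Mycbp2 rests on the length used, which in the authors' files averaged 5228 to 5824 bases across libraries, while the longest annotated transcript has 15233. Rescaled to that longest transcript, the Mycbp2 TPM would be 37.6 to 46.0 (median 43.2), overlapping the range of Map3k12.

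The wider pathway was read from lists of related genes. Over all genes tested, 10.9% had an unadjusted p under 0.05. Of 12 tested genes of NAD synthesis and transport none passed in either direction, with a median log2 fold change of 0.01 and 1 gene at an unadjusted p under 0.05. The 2 with the smallest p were Nadk2, the mitochondrial NAD kinase (-0.09 ± 0.04, edgeR adjusted p = 0.456), and Slc25a51, the mitochondrial NAD carrier (0.05 ± 0.03, edgeR adjusted p = 0.551). Kmo, Kynu, Haao and Ido1, enzymes of tryptophan breakdown, were below the filter. Among 16 tested genes that consume NAD none passed either (median 0.02, 1 at an unadjusted p under 0.05), and Nnmt was below the filter. There the smallest p-values belonged to the poly(ADP-ribose) polymerases Parp2 (0.17 ± 0.05, edgeR adjusted p = 0.185) and Parp1 (-0.05 ± 0.03, edgeR adjusted p = 0.491).

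None of 8 tested partners of MYCBP2 and factors that govern NMNAT2 turnover passed, and none had an unadjusted p under 0.05 (median -0.02). Fbxo45, the substrate-binding partner of MYCBP2, was at 59.4 ± 2.73 normalised CPM in ETAQ/+ and 57.8 ± 3.07 in WT (log2 fold change 0.04 ± 0.04, edgeR adjusted p = 0.796). Skp1a, the adaptor of the same ligase, was at 343 ± 7.39 and 349 ± 9.30 normalised CPM (-0.03 ± 0.03, edgeR adjusted p = 0.810).

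Over all genes, 8266 of 17189 had a negative fold change and 10.9% an unadjusted p under 0.05. No gene of the DLK and JNK kinase cascade passed among 18 tested (median -0.03). Of these 18, 12 had a negative fold change and 4 had an unadjusted p under 0.05. The 2 with the smallest p were the kinases Mapk9 (JNK2, -0.09 ± 0.04, edgeR adjusted p = 0.315) and Map2k7 (-0.07 ± 0.03, edgeR adjusted p = 0.423). Map3k13, the LZK kinase closest to DLK, was at -0.12 ± 0.05 (edgeR adjusted p = 0.437), and Jun, the transcription factor at the end of the cascade, was at 53.5 ± 1.55 normalised CPM in ETAQ/+ and 53.2 ± 5.11 in WT. These last 2, and Atf3 below, were named after their values were seen.

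None of 16 tested axon injury response genes passed, although 6 had an unadjusted p under 0.05, beside 10.9% of all genes (list median 0.00). Ngfr, the p75 neurotrophin receptor, was at 2.65 to 3.97 normalised CPM in ETAQ/+ and 1.97 to 3.01 in WT (log2 fold change 0.47 ± 0.12, edgeR adjusted p = 0.0741; DESeq2 gave 0.0347). Csf1, a cytokine that injured motor and sensory neurons release, was at 59.5 ± 2.21 and 53.7 ± 3.57 (0.15 ± 0.04, edgeR adjusted p = 0.131). Atf3, the injury-induced transcription factor, was low in both groups, at 1.03 to 1.70 normalised CPM in ETAQ/+ and 0.676 to 1.22 in WT (0.42 ± 0.16, edgeR adjusted p = 0.306). Sprr1a and Arg1 were below the filter.

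In the list of calpains, caspases and apoptosis genes, 4 of 18 tested genes were called lower in ETAQ/+, beside 1.34% of all genes. None was called higher, and the median was 0.04. Dffa encodes the protein that keeps the nuclease of apoptosis in check. It was at 63.0 to 69.1 normalised CPM in ETAQ/+ and 94.97 to 100.3 in WT, a log2 fold change of -0.57 ± 0.03 (edgeR adjusted p = 4.04e-08). Capn1, the catalytic subunit of calpain 1, was at 32.9 to 40.1 and 41.9 to 47.3, also without overlap (-0.34 ± 0.05, edgeR adjusted p = 0.0013). Cast encodes calpastatin, the inhibitor of calpains, and was at 22.3 to 24.2 and 25.3 to 28.8 (-0.22 ± 0.04, edgeR adjusted p = 0.0107), with no overlap. The Cast call was lost with limma on log2(TPM + 0.1) (-0.18, adjusted p = 0.128) and within either set of mice. Capns1, the small calpain subunit, overlapped at 148 to 162 and 156 to 177 (-0.13 ± 0.03, edgeR adjusted p = 0.0455), and this call was lost in 11 of the 12 fits that left out 1 mouse and with limma on log2(TPM + 0.1) (-0.05, adjusted p = 0.627). The 4 genes encode a protease, its subunit, an inhibitor of calpains and an inhibitor of a nuclease. Capn2, the catalytic subunit of calpain 2, was at 141 ± 10.5 and 145 ± 8.78 normalised CPM and was not called.

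Over all genes, 8266 of 17189 had a negative fold change. Of the axonal transport motors all 13 had a negative fold change (median -0.06, beside -0.06 for the pan-neuronal markers). Among them 1 passed, beside 1.34% of all genes called lower. Kif5c, a kinesin heavy chain of neurons, was at 884 to 951 normalised CPM in ETAQ/+ and 956 to 1049.6 in WT (-0.12 ± 0.03, edgeR adjusted p = 0.0455). That call was lost in 10 of the 12 fits that left out 1 mouse and with limma on log2(TPM + 0.1) (-0.08, adjusted p = 0.632). Dync1i1, a dynein intermediate chain, was just outside at -0.12 ± 0.03 (edgeR adjusted p = 0.0693).

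**Figure D4:**
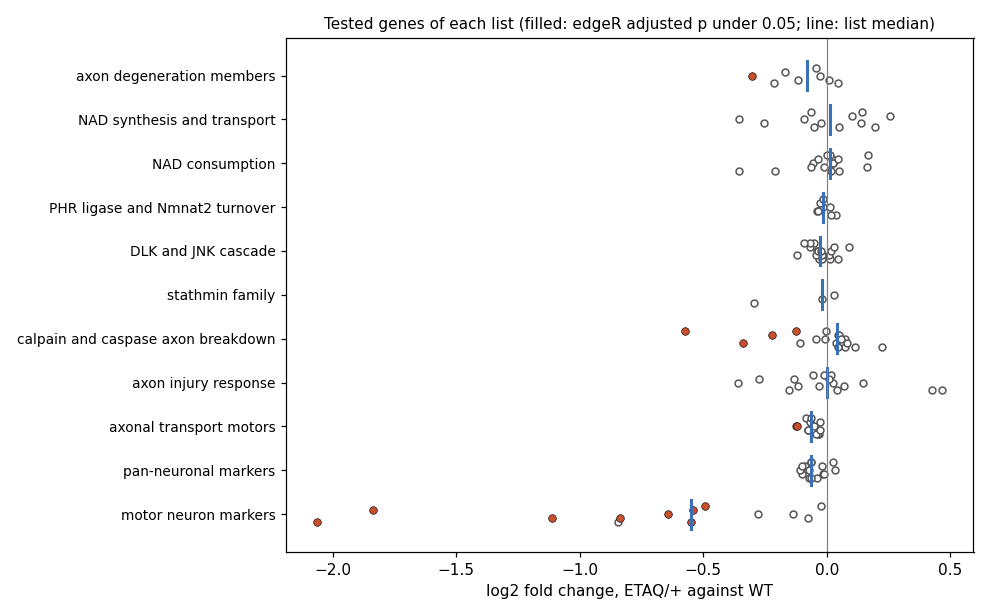
Log2 fold change of ETAQ/+ against WT (x axis) for each tested gene of the 8 members and 10 related lists (y axis), filled where the edgeR adjusted p was under 0.05, with a line at each list's median. Calls lie at Stmn2, 4 genes of the calpain and caspase list, 1 transport motor and 8 motor neuron markers, whose median is -0.55. The medians of the other lists lie between -0.08 and 0.04.

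Markers of other cells were read alongside, beside 1.34% of all genes called lower and 0.582% called higher. None of 8 oligodendrocyte or 8 microglia markers passed, and 1 of 8 astrocyte markers did, the glutamate transporter Slc1a3 (0.19 ± 0.04, edgeR adjusted p = 0.0141). Of 5 tested sensory ganglion markers 2 were higher in ETAQ/+, P2rx3 (2.87 ± 0.13, edgeR adjusted p = 6.7e-09) and Avil (2.35 ± 0.32, edgeR adjusted p = 0.000934), with summed TPM of the matched list at 56.1 to 78.1 in ETAQ/+ and 37.5 to 51.7 in WT. Scn10a, Scn11a, Trpv1 and Mrgprd, defining markers of sensory neurons, were below the filter, but all 4 were highest in ETAQ/+ mouse 1, at 0.74, 0.59, 0.46 and 0.18 TPM, against at most 0.02, 0.04, 0.17 and 0.04 in the other 11 mice. Without mouse 1 the log2 fold changes were 2.92 for P2rx3, 2.17 for Avil and -0.30 for Stmn2, all called.

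The genes whose pattern over the 12 libraries was most like that of each member were found by Pearson's r of log2 normalised CPM. For Stmn2 these were Chodl (r = 0.98) and the gene model Gm3636 (r = 0.98), both lower in ETAQ/+ (log2 fold changes -1.84 and -2.31). Those points form 2 groups by genotype, so r there mostly reflects the difference between them. For Sarm1 they were Fbxo33 (0.90) and Gm26767 (0.87), for Nmnat1 Saysd1 (0.96) and Chi3l1 (0.91), and for Nmnat2 Pknox2 (0.91) and Car12 (0.91). The nearest to Nmnat3 were Capzb (0.87) and Camk2n1 (0.87), to Nampt Vps37a (0.89) and Itgb1bp1 (0.89), to Mycbp2 Dync2h1 (0.96) and Kcnh5 (0.95), and to Map3k12 L1cam (0.90) and Cnnm1 (0.89). None of these 14 passed the genotype test (edgeR adjusted p from 0.206 to 0.998). Each is the best of 17189 genes over 12 points that share library and depth, and is given as a description.

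The neighbourhoods of the genes were examined for further calls. Within 5 Mb of Nmnat1, 3 of 111 tested genes were called in either direction, against 1.92% of all genes, and 1 of them was Dffa at 149104146 to 149120647. The others were Chd5 and Fbxo2. Near Nmnat2, 2 of 61 were called (Fam129a and Lhx4), near Map3k12 2 of 135 (Aqp6 and Prph) and near Sarm1 1 of 156 (Serpinf1). No tested gene was called within 5 Mb of Stmn2 (22 tested), Mycbp2 (26), Nampt (46) or Nmnat3 (62).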

How the data were processed

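Libraries of poly(A) RNA were sequenced as pairs of 75-base reads, per the labels' protocols, which name 2 kits without saying which library used which. The authors aligned with Bowtie2 2.2.0 and quantified with RSEM 1.2.12, per the submitters' processing notes. No genome build, annotation or strand setting is given in the sources used here. Per gene and mouse, the deposited tables hold an expected count (RSEM's estimate, 15.4% of values not whole) and a TPM value, per the file headers. Expected counts were rounded. Totals and the CPM that 3 counts represent are given above, and that floor covers counting error only.

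edgeR 4.0.16 in R 4.3.3 fitted quasi-likelihood models (robust, TMM factors 0.975 to 1.02, filterByExpr on the 4 genotype-by-sex groups), with sex as covariate for genotype, and tested genotype by sex in the 4 groups. Calls used a Benjamini-Hochberg adjusted p under 0.05 over 17189 genes. On simulated counts for 17189 genes, the genotype test recovered 20% of genes whose change was 1.2-fold, 66% of those changed 1.5-fold and 88% of those changed 2-fold, while 4.86% of calls were false. Apart from the planted changes, the simulation gave a gene the same mean in every mouse, without sex or mouse-set effects. Recovery and false calls in these libraries may therefore differ. Ratios were compared by exact two-sided permutation tests (scipy 1.17.1) over 4 ratios. Alternatives were RLE factors, no filter, no covariate, mouse set as covariate, within-set effects, limma-voom, limma 3.58.1 on log2(TPM + 0.1), DESeq2 1.42.0 and leaving out each mouse. The split into mice 1 to 6 and 7 to 12 comes from the numbers in the titles and from the blood and nerve markers. Each mouse has a number of its own, and whether p-values reflect separate litters is not stated.

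The members, gene lists and tests were chosen with earlier results of these data known. Named were the 8 genes, Gars, and the 2 genes most like each member. Of each list the called genes (up to 6 with the smallest p) were named, or else the 2 with the smallest p. Glial, nerve, muscle and blood lists with no call are given as counts or sums only. Mnx1, Isl1, Isl2, Slc5a7, Mmp9, Capn2 and Dync1i1 were added. Positions, overlaps and shared 75-base sequences come from GENCODE M21 (GRCm38), matched by Ensembl gene ID.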

Additional observations from a re-analysis of the deposited data

How the results depend on the processing

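Stmn2 was called lower under every alternative run, with log2 fold changes from -0.33 to -0.26 and its ratio to the pan-neuronal mean from -0.29 to -0.22; the other 7 genes were called under none. The number of genes called for genotype, 330, was 138 within mice 1 to 6 and 161 within mice 7 to 12 (fewer mice each), 152 with limma on log2(TPM + 0.1), 506 with DESeq2 and 236 to 315 with 1 mouse left out. Calls for genotype by sex, 0, became 3 with DESeq2 and 0 to 2 with 1 mouse left out. The sex effect, 16 genes, was 9 with mouse set as covariate and 364 with DESeq2. With 1 mouse left out it was 11 to 1180 (1018 without mouse 1 and 1180 without mouse 11). Without mouse 1, mice 1 to 6 were all male, and without mouse 11, mice 7 to 12 were all female. Sex then lay closer still to mouse set, whose part in those counts was not tested. Of calls outside the 8 genes, those of Cast, Capns1, Kif5c and Gars were lost on the TPM scale and within both sets, and that of Slc1a3 within both sets. Kif5c was also lost with RLE factors and without the filter, and Capns1 without the filter, without covariate and with limma-voom. Not called over all mice, Stmn1, Ngfr, Snap25 and Map3k13 each stayed uncalled in only 11 of the 12 fits that left out 1 mouse. The comparisons of this section leave out Mnx1, Isl1, Isl2, Slc5a7, Mmp9, Capn2 and Dync1i1. Changes of sign were confined, among the results named, to values that were not called: on the TPM scale Nmnat2 0.000348, Nampt 0.0148, Stmn3 0.0214 and Skp1a 0.0407, where the median of all genes moved from 0.0043 to 0.0415; within mice 1 to 6 Mycbp2 -0.0315; within mice 7 to 12 Nmnat3 0.0231, Stmn4 -0.0510 and Jun -0.0304. With 1 mouse left out, ranges that crossed 0 were -3.95e-05 to 0.0303 for Mycbp2, -0.00572 to 0.0563 for Stmn4, -0.0162 to 0.0416 for Jun, -0.0165 to 0.0571 for the sex difference of Stmn2 and -0.0025 to 0.0246 for the ratio of Nmnat2 to the pan-neuronal mean. The cause of the other shifts was not tested. Depth limits Nmnat3 most, with 45 to 88 counts per library. No paired analysis was possible because every mouse has a number of its own.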
